A study of Mus musculus with 8 samples.

Results

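The transition examined here is that of germ cells of the mouse testis from meiosis to the post-meiotic stage in the absence of the histone variant H3.3B. It is read from 4 of the 8 RNA-seq libraries of the series, 2 of KO meiotic and 2 of KO post-meiotic cells, and the 4 libraries of WT meiotic and post-meiotic cells serve only for the test of where the KO transition differs. The KO males carried the genotype H3.3BKO/KO with Actin Cre WT, and the WT males H3.3BWT/WT with Actin Cre WT. All were C57BL/6 mice aged between 3 and 6 months, and the RNA of a library is described as coming from 1 single mouse. Seminiferous tubules were treated with collagenase, the cells of every group were dissociated in medium with 10 mM sodium butyrate, an inhibitor of histone deacetylases, and fractions were separated by sedimentation through a gradient of 2% to 4% bovine albumin. The post-meiotic fraction is described as mainly round spermatids with few elongated ones, so a fraction is enriched and not pure, and a fraction with fewer cells of a type cannot be told apart from cells with less RNA. Counts were deposited for 29880 genes, 876 piRNA clusters and 1208 repeat families, of which 20412, 402 and 965 had enough reads to be tested.

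H3.3 is a histone variant that is laid down outside DNA replication and is encoded by 2 genes, H3f3a and H3f3b, which make the same protein. In pachytene spermatocytes homologous chromosomes are paired, recombination is completed and the X and Y chromosomes are silenced in the sex body. After the meiotic divisions, round spermatids build the acrosome and the tail and replace most of their histones, at first with transition proteins and then with protamines. Spermatocytes also transcribe long precursors of piRNAs, the small RNAs that guide PIWI proteins. Transcripts made before and during meiosis can persist into spermatids, so a level in total RNA is the balance of synthesis and decay.

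Promoters of genes of sperm and testis chromatin proteins are shown first, among them the stage markers Prm1 and Hist1h1t. The stage marker Oaz3 had no entry among the promoters and is not shown. Each line holds the 150 bases before the RefSeq start site on the strand of the gene, from the GRCm38.p6 assembly, and capitals mark a match to one of 3 motifs searched on both strands, the cyclic AMP response element TGACGTCA, its variant TGACTTCA and the TATA motif TATAAA. None of the 3 motifs overlaps another. Prm1 is at chr16:10796824-10796973 on the minus strand, and its match is TGACTTCA at position -64. Prm2 is at chr16:10792106-10792255 on the minus strand, with TATAAA read from the other strand at -31. Tnp1, at chr1:73015900-73016049 on the minus strand, Tnp2, at chr16:10788656-10788805 on the minus strand, and Hist1h1t, at chr13:23695661-23695810 on the plus strand, hold no match in this window. Hist1h2ba is at chr13:23934157-23934306 on the minus strand and holds TATAAA at -94.
Prm1: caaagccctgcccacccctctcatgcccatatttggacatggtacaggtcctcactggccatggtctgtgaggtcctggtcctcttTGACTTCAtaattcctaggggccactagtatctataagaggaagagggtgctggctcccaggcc
Prm2: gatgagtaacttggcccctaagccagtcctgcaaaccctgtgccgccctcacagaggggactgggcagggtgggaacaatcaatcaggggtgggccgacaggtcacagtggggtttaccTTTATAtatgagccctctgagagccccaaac
Tnp1: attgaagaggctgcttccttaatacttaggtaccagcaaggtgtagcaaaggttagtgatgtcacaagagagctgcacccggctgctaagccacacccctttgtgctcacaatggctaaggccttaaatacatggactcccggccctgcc
Tnp2: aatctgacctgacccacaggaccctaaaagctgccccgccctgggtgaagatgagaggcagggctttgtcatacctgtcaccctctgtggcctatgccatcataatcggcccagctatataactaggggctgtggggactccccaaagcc
Hist1h1t: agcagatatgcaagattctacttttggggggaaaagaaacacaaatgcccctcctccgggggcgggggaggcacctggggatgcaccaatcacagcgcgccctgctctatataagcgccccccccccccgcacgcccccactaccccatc
Hist1h2ba: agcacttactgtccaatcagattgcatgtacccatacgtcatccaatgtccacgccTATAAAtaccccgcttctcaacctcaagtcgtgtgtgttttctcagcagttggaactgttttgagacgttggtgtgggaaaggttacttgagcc
Over the 250 bases before the start of 27025 RefSeq genes, TGACGTCA was found in 1.77%, TGACTTCA in 1.54% and TATAAA in 14.3%. Only 14305 of the tested genes could be matched to these promoters, under 80%, so a comparison of the called genes with the rest is void and is not given. A match is a run of letters and not a shown binding site.

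Total gene counts ran from 57853283 to 92836630 per library, 59080549 and 92836630 in the KO meiotic and 63398580 and 57853283 in the KO post-meiotic libraries. Levels of genes are given as CPM, read counts scaled to a common depth by TMM (the trimmed mean of M-values of edgeR), and the value after ± is the standard error of a log2 change. Transcript of the targeted gene H3f3b was at 9.84 and 11.2 CPM in KO meiotic and 6.43 and 7.70 CPM in KO post-meiotic libraries, against 568 and 554 CPM in WT meiotic and 237 and 217 CPM in WT post-meiotic libraries. The other H3.3 gene, H3f3a, was at 148 and 151 CPM in KO meiotic and 116 and 117 CPM in KO post-meiotic libraries, and fell (log2 -0.36 ± 0.048, edgeR adjusted p = 1.18e-06). Each p rests on the spread between 2 libraries a group, through an estimate that all genes and groups share. Nothing in the labels says which fractions came from the same animal.

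Between KO meiotic and KO post-meiotic cells, 2102 of 20412 tested genes rose (10.3%) and 2409 fell (11.8%) at an edgeR adjusted p under 0.01 with a log2 change past 1. With no fold minimum 6028 rose (29.5%) and 6431 fell (31.5%), and the median of all genes was a log2 change of 0.05. Scaling by library totals in place of TMM gave 1747 and 2825, so 38.2% in place of 46.6% of the calls were rises, and it moved the median by -0.10.

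The markers of both stages moved in the direction of their labels. Prm1, a protamine that packs sperm DNA, was at 1636 and 1330.3 CPM in KO meiotic and 5062 and 4899 CPM in KO post-meiotic libraries (chr16:10796419-10796979 of mm9, log2 1.75 ± 0.11, edgeR adjusted p = 1.07e-05). Oaz3, the ornithine decarboxylase antizyme of spermatids, went from 982 and 861 to 2798 and 2770.4 CPM (chr3:94237088-94240538, log2 1.60 ± 0.054, edgeR adjusted p = 2.93e-15). The groups did not overlap in either gene, as in 84.5% of all tested genes in 1 direction or the other, and both were already abundant in the meiotic libraries. Hist1h1t, a linker histone that spermatocytes make, fell from 948 and 1016 to 58.7 and 53.5 CPM (chr13:23787680-23788588, log2 -4.13 ± 0.063, edgeR adjusted p = 2.14e-19). Every KO post-meiotic library held far less of it than every KO meiotic one.

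**Figure D1:**
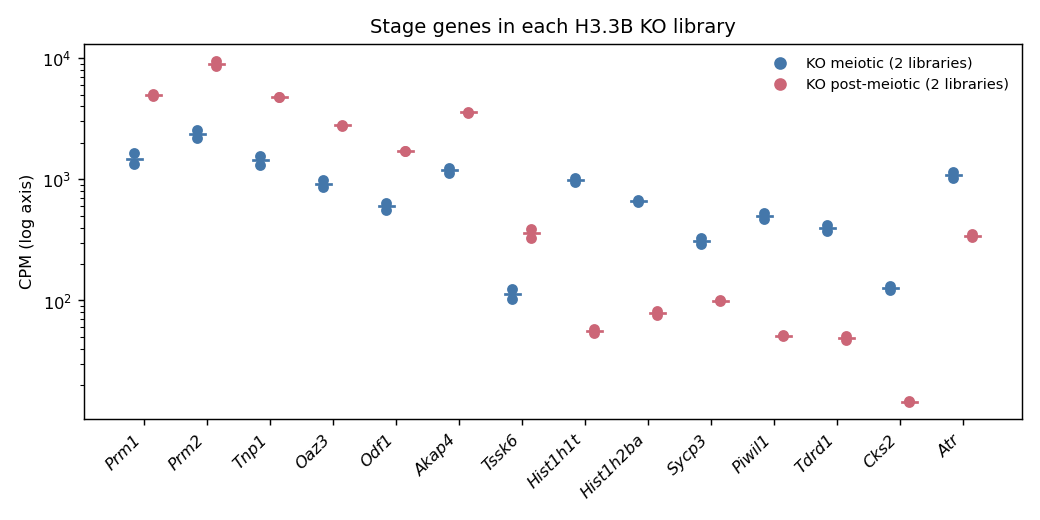
Level of 14 genes in each H3.3B KO library, in CPM on a log axis. Each point is 1 library, short lines are the group means (2 libraries each), and the 7 genes on the left are higher in both post-meiotic libraries while the 7 on the right are lower.

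Sperm chromatin genes moved in both directions. Of 32 tested sperm chromatin genes 13 rose (40.6%) and 18 fell (56.2%) with no fold minimum, with a median of -0.33. At this threshold 29.5% of all genes rose and 31.5% fell, the shares that each list count below stands against. Prm2 held the highest level of the protamines and transition proteins, at 2553 and 2192 CPM in KO meiotic and 8529.8 and 9455 CPM in KO post-meiotic libraries (log2 1.92 ± 0.073). Transition protein genes Tnp1 (1559 and 1319 to 4769.8 and 4803 CPM, log2 1.73 ± 0.072) and Tnp2 (1457 and 1133 to 3976 and 4118 CPM, log2 1.64 ± 0.16) rose by like amounts. H1fnt (1.49 ± 0.065) and Hils1 (0.96 ± 0.10), the linker histones of spermatids, and H2afb1 (1.73 ± 0.091), a short H2A variant, rose too. So did Prm3 (1.41 ± 0.070) and the remodeller Chd5 (0.92 ± 0.053). Psme4, the proteasome activator that takes part in histone removal, rose less (0.40 ± 0.043).

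The testis histones of spermatocytes moved the other way. Hist1h2ba, the testis H2B, was at 651 and 674 CPM in KO meiotic and 76.3 and 82.4 CPM in KO post-meiotic libraries (log2 -3.06 ± 0.052, edgeR adjusted p = 2.14e-19). Hist1h2bb went from 1196 and 1078 to 136 and 120.2 CPM (log2 -3.15 ± 0.076). Hist1h2aa, the testis H2A, fell by 2.34 on the log2 scale, more than the -1.68 of WT cells (difference -0.66 ± 0.086, edgeR adjusted p = 0.000351). Further falls were those of H2afx (-2.24 ± 0.092), whose phosphorylated form marks the sex body, H2afz (-1.05 ± 0.051), the histone chaperones Asf1b (-1.40 ± 0.063), Asf1a (-0.64 ± 0.068) and Hira (-0.75 ± 0.092), and the bromodomain protein Brdt (-0.30 ± 0.047). Nasp, a linker histone chaperone, did not pass the test (-0.11 ± 0.042).

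The tail genes rose with few exceptions. Of 28 genes of the fibrous sheath, outer dense fibres and mitochondrial sheath 25 rose, none fell and the median was 0.82. At an unadjusted p under 0.05 and by DESeq2 the count of falls was also 0, which holds as well for each list and chromosome below for which no fall or no rise is given. Akap4, the main protein of the fibrous sheath, was at 1234 and 1137 CPM in KO meiotic and 3623 and 3544 CPM in KO post-meiotic libraries (log2 1.60 ± 0.051), and Odf1, of the outer dense fibres, at 643 and 556 and 1709 and 1708 CPM (log2 1.51 ± 0.057). Gapdhs, the glycolytic enzyme bound to the sheath (1.57 ± 0.063), Spata18 (1.67 ± 0.059), Smcp of the mitochondrial capsule (1.45 ± 0.063) and Odf2 (1.05 ± 0.047) also rose. Tekt2 (0.43 ± 0.21), Fsip2 (0.04 ± 0.049) and Ropn1l (0.03 ± 0.045) did not pass the test.

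Axoneme genes, which build the microtubule core that tail and motile cilia share, moved about as often as genes at large. Of 33 tested 11 rose and 11 fell (33.3% each), near the 29.5% and 31.5% of all genes, with a median of -0.03. Dnahc3 (0.57 ± 0.047), a dynein heavy chain, rose, while the radial spoke gene Rsph1 (-0.84 ± 0.043), the intraflagellar transport gene Ift88 (-0.75 ± 0.051) and Ccdc39 (-0.53 ± 0.049) fell. Dnahc8, with 2915 and 3624 CPM in KO meiotic and 1684 and 2078 CPM in KO post-meiotic libraries, did not pass the test (-0.80 ± 0.20).

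Acrosome genes rose in smaller steps. Of 32 tested 21 rose and 2 fell, with a median of 0.40, and 1 member rose by more than 1. That member was Cylc1, a protein of the sperm head skeleton (1.11 ± 0.063), followed by Izumo2 (0.95 ± 0.054) and Izumo3 (0.90 ± 0.053), relatives of the egg-binding protein Izumo1 (0.50 ± 0.053). The falls were those of Gopc, a Golgi protein needed for acrosome formation, from 56.3 and 61.3 to 14.2 and 13.8 CPM (log2 -2.07 ± 0.063), and of Adam2 (-0.40 ± 0.044). The protease gene Acr did not pass the test (0.13 ± 0.046).

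Among 25 genes of head shaping and the manchette, the microtubule sleeve of the elongating nucleus, 18 rose and 4 fell, with a median of 0.45. Spem1 (250.1 and 214 to 788 and 837 CPM, log2 1.81 ± 0.066) and Spatc1 (1.76 ± 0.076) rose most. Cntrob, a centriole protein, fell by 2.55 on the log2 scale, and Spata2 (-1.04 ± 0.084), Lrguk (-0.44 ± 0.051) and Azi1 (-0.35 ± 0.074) fell as well. Of 28 sperm kinases, channels and transporters 17 rose and 4 fell, with a median of 0.39. The testis serine kinases Tssk6 (1.66 ± 0.11), Tssk3 (1.39 ± 0.051) and Tssk2 (1.25 ± 0.058), the sodium pump Atp1a4 (1.33 ± 0.049) and the soluble adenylyl cyclase Adcy10 (0.71 ± 0.050) rose. Of the sperm calcium channel, the pore genes Catsper1 (0.52 ± 0.058), Catsper3 (0.47 ± 0.059) and Catsper4 (0.51 ± 0.059) rose, while the accessory genes Catsperb (-0.15 ± 0.049), Catsperg1 (-0.25 ± 0.064) and Catsperg2 (-0.45 ± 0.047) fell, as did the calcium pump Atp2b4 (-0.47 ± 0.063). Of 10 alternatives Catsperb missed the test in 5, among them RLE factors, the KO libraries alone and without the second library of either KO group, and Azi1 and Catsperg1 in 2, without the second KO meiotic or the first KO post-meiotic library.

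Of 26 germ cell forms of metabolic enzymes 11 rose and 11 fell (42.3% each). The median was 0.09, and -0.01 when scaled by library totals. Hk1, a hexokinase (1.31 ± 0.046), Pgk2, a phosphoglycerate kinase (1.20 ± 0.050), Aldoart2, an aldolase (1.15 ± 0.050), and Gapdhs were among the rises. The falls included the glucose transporter Slc2a3, from 1990.3 and 2007 to 769 and 714 CPM (log2 -1.43 ± 0.047), the testis cytochrome c Cyct (-1.38 ± 0.058), the ADP/ATP carrier Slc25a31 (-1.23 ± 0.060) and the pyruvate dehydrogenase subunit Pdha2 (-0.85 ± 0.048). Ldhc, the sperm lactate dehydrogenase, was at 3934 and 3785 CPM and 4149 and 4020.4 CPM in the 2 stages and did not pass the test (0.08 ± 0.047). Of 15 tested genes of the mitochondrial genome none rose and 13 fell with no fold minimum, with a median of -0.90. The ribosomal RNA genes mt-Rnr2 (4356 and 5667 to 4035 and 4745 CPM, log2 -0.19 ± 0.21) and mt-Rnr1 (-0.20 ± 0.29) did not pass the test. The falls include the tRNA genes mt-Tp (15 and 32 to 1 and 2 reads) and mt-Tt (7 and 17 to 1 and 2 reads). The cytochrome oxidase gene mt-Co1 was at 2249 and 2437 CPM in KO meiotic and 1544 and 1472 CPM in KO post-meiotic libraries (log2 -0.64 ± 0.048).

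Genes of meiotic prophase fell, with named exceptions. Of 46 tested genes of synapsis and recombination 33 fell and 7 rose, with a median of -0.88. Sycp3, of the axial element of the synaptonemal complex, was at 290.1 and 326 CPM in KO meiotic and 101 and 98.2 CPM in KO post-meiotic libraries (log2 -1.63 ± 0.055). Sycp1 (-1.23 ± 0.065), of its central region, Hormad1 (-1.96 ± 0.072), a sensor of unpaired axes, the mismatch repair gene Mlh3 (-2.08 ± 0.064) and the crossover regulator Ccnb1ip1 (-3.23 ± 0.12) also fell. The 7 that rose were Syce2 (93.2 and 91.5 to 196 and 198 CPM, log2 1.09 ± 0.049), Rec8, the meiotic cohesin (0.55 ± 0.054), Tex15 (0.48 ± 0.049), Smc3 (0.42 ± 0.049), Prdm9 (0.34 ± 0.11), Dmc1 (0.25 ± 0.077) and Mus81 (0.22 ± 0.062), of which the last 3 often did not pass otherwise. Of 10 alternatives Prdm9 and Mus81 missed the test in 6 and Dmc1 in 7, DESeq2, scaling by library totals and leaving out either KO post-meiotic library among them.

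Of 40 signalling genes of the sex body 25 fell and 7 rose, with a median of -0.33. The kinase Atr, which spreads silencing over the X and Y chromosomes, was at 1033 and 1147 CPM in KO meiotic and 351 and 333 CPM in KO post-meiotic libraries (log2 -1.67 ± 0.051, edgeR adjusted p = 4.61e-16). Its partner Topbp1 (-1.84 ± 0.065), Mdc1 (-1.47 ± 0.17), which binds phosphorylated H2AX, the heterochromatin protein Cbx1 (-1.91 ± 0.069) and Rnf8 (-1.34 ± 0.073) fell. The rises were of Zfy2 (0.63 ± 0.089), Zfy1 (0.56 ± 0.10), Ehmt2 (0.56 ± 0.052), Suv39h2 (0.44 ± 0.054), Huwe1 (0.42 ± 0.088, not past the test when scaled by library totals or without the second KO post-meiotic library), Ube2a (0.41 ± 0.087) and Scml2 (0.33 ± 0.063), of which Zfy1 and Zfy2 are on Y and Huwe1, Ube2a and Scml2 on X.

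Of 53 genes of the meiotic divisions 32 fell and 9 rose, with a median of -0.37. Cks2, a small partner of cyclin-dependent kinases, went from 121 and 133 to 14.9 and 14.4 CPM (log2 -3.12 ± 0.064), and Cdk2 (-2.09 ± 0.062), Ccne2 (-2.30 ± 0.072) and Fbxo43 (-2.37 ± 0.071), an inhibitor of the anaphase-promoting complex, fell. Cdc25c (0.59 ± 0.066), Ccnb3 (0.57 ± 0.088), Plk1 (0.45 ± 0.053), Cdc25a (0.44 ± 0.047), Ccna1 (0.36 ± 0.049), Ccnb1 (0.30 ± 0.058, not past the test without the first KO post-meiotic library), Kif23 (0.29 ± 0.052), Wee1 (0.19 ± 0.061) and Cenpe (0.16 ± 0.046) rose. None of these 9 rose by more than 1 on the log2 scale, and 2 of the calls were fragile. Wee1 missed the test in 7 of 10 alternatives, each left-out KO library among them, and Cenpe in 6, among them DESeq2, library totals and every left-out KO library but the second meiotic one.

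Of 41 transcription regulators of germ cells 23 fell and 11 rose, with a median of -0.30. Sap30, a subunit of a histone deacetylase complex (-3.36 ± 0.12), Mllt10 (413 and 442 to 87.9 and 83.9 CPM, log2 -2.32 ± 0.051), Hmgb2 (-2.31 ± 0.066) and Mybl1, the regulator that opens pachytene transcription (-1.26 ± 0.057), fell. Crem, the cyclic AMP regulator of spermatid genes, changed little (219.8 and 227 to 253 and 254 CPM, log2 0.18 ± 0.045) and missed the test in 5 of 10 alternatives, library totals and every left-out KO library but the second meiotic one among them. The other 10 rises were of Jund (0.99 ± 0.17), Rfx3 (0.96 ± 0.057), Fhl5 (0.88 ± 0.090), a partner of Crem, Rfx1 (0.72 ± 0.054), Nr6a1 (0.62 ± 0.047), Sox5 (0.41 ± 0.049), Hsf2 (0.34 ± 0.050), Sox30 (0.30 ± 0.063), Gtf2a1l (0.26 ± 0.052) and Rfx2 (0.15 ± 0.047). Of these, Rfx2 missed the test in 9 of 10 alternatives, every left-out KO library among them, Jund in 2, with the KO libraries alone and without the second KO meiotic one, Sox30 without the second KO post-meiotic and Gtf2a1l without the first KO post-meiotic library. Of 43 RNA binding and translation genes 19 fell (44.2%) and 12 rose (27.9%, near the 29.5% of all genes), with a median of -0.19. The germ cell RNA-binding protein Dazl (-1.31 ± 0.065) and Adad2 (81.1 and 88.0 to 9.97 and 10.4 CPM, log2 -3.05 ± 0.066) fell. The rises were of Cpeb3 (1.47 ± 0.071), Eif4g1 (0.85 ± 0.051), Paip2 (0.83 ± 0.048), Celf3 (0.66 ± 0.066), Fxr1 (0.63 ± 0.044), Msi2 (0.54 ± 0.054), Papolb (0.50 ± 0.045), Fmr1 (0.48 ± 0.082), Stau2 (0.32 ± 0.10), Eif4e (0.24 ± 0.047), Pabpc2 (0.18 ± 0.044) and Ybx2 (0.17 ± 0.048). Stau2 missed the test in 8 of 10 alternatives, every left-out KO library among them, Ybx2 in 5, among them every left-out KO library but the first post-meiotic one, Pabpc2 in 3, without the first KO meiotic or the second KO post-meiotic library and with library totals, and Eif4e without the first KO post-meiotic library. Of 54 ubiquitin and proteasome genes 21 rose (38.9%) and 22 fell (40.7%), with a median of -0.03. Psma8, the core subunit of the testis proteasome, fell from 243 and 272 to 43.6 and 43.8 CPM (log2 -2.56 ± 0.060), while Ubqlnl (150.3 and 132 to 521 and 502 CPM, log2 1.86 ± 0.057), the ligase Rnf133 (1.47 ± 0.056) and Klhl10 (1.08 ± 0.050) rose. Of 83 cytosolic ribosomal protein genes 44 fell and 7 rose, with a median of -0.20 and a range from -1.57 for Rpl10a to 1.06 for the X-linked Rps4x. The other 6 rises were of Rpl39 (0.49 ± 0.11), Rps20 (0.49 ± 0.051), Fau (0.34 ± 0.058), Rpl36 (0.29 ± 0.066), Rpl41 (0.29 ± 0.062) and Rpl26 (0.19 ± 0.061). Rpl26 missed the test in 9 of 10 alternatives, every left-out KO library among them, Rpl41 and Rpl36 with library totals and without the second KO post-meiotic library, Rpl41 also without the second KO meiotic one, and Rpl39 without the first KO post-meiotic library.

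**Figure D2:**
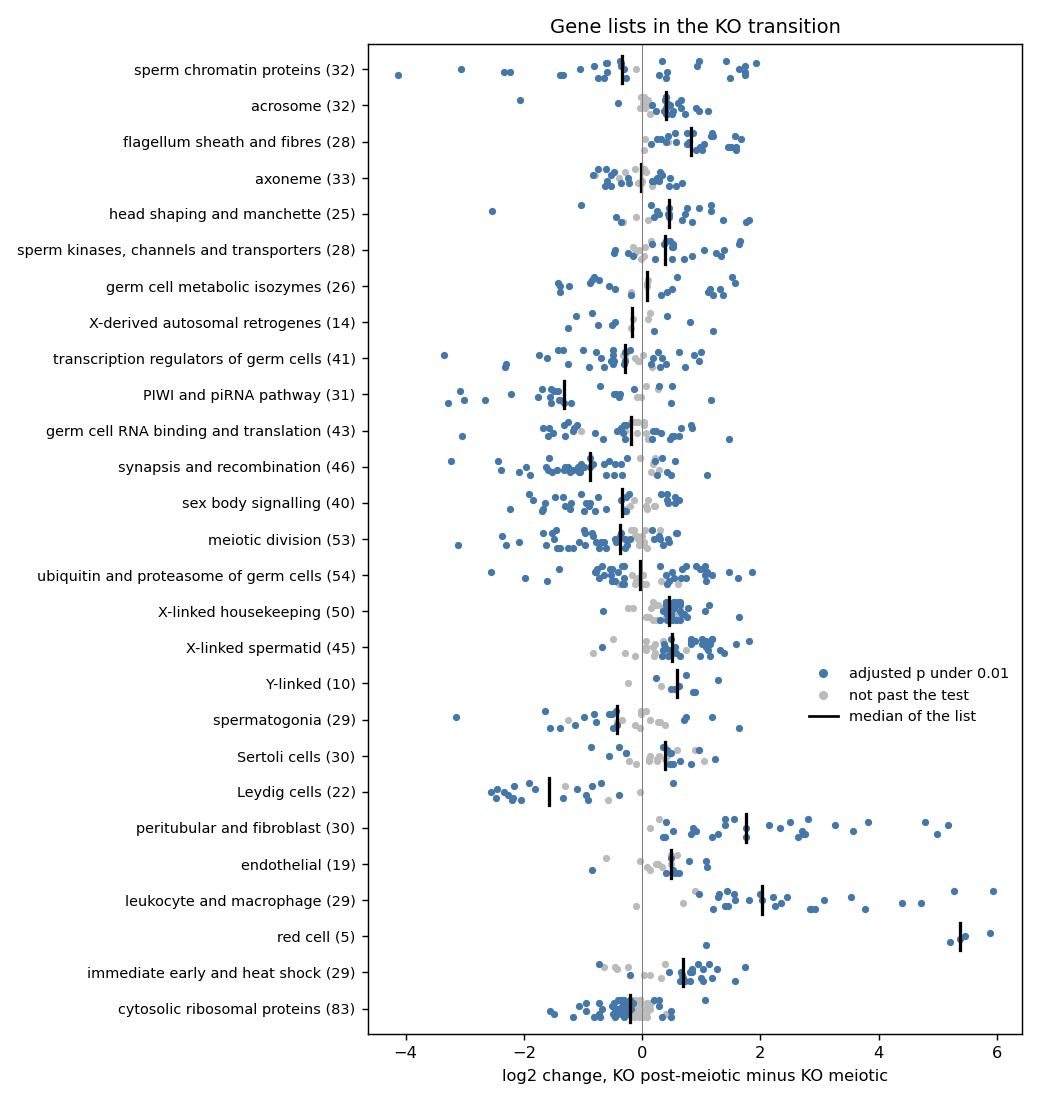
Log2 change between KO meiotic and KO post-meiotic cells of the tested members of 27 gene lists, with the number of members in parentheses. Each point is a gene, coloured where its edgeR adjusted p is under 0.01, and black bars are list medians, which run from -1.58 for Leydig cells to 5.37 for the red cell list.

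By the rule that names the 12 largest changes among genes with at least 50 CPM and no overlap of the groups, the falls were of Hist1h1t, Piwil1, Hist1h2bb, Id4 (-3.14 ± 0.084), Cks2, Tdrd5, Hist1h2ba, Adad2, Tdrd1, Mgll (-2.99 ± 0.057), Lass3 (-2.94 ± 0.068) and Dut (-2.94 ± 0.074). Id4 is an inhibitor of helix-loop-helix factors, Mgll a monoacylglycerol lipase, Lass3 a ceramide synthase of the testis and Dut the dUTPase. Id4, Cks2, Hist1h1t, Hist1h2ba and Hist1h2bb all lie on chromosome 13, the histone genes within chr13:23787680-24026025 of mm9. Of all 774 tested genes of that chromosome 14.6% fell by more than 1, against 11.8% of all genes. The 12 largest rises were of Dcn, Fgl2, Lamc3, Gsn, Ahnak, Car2, Prm2, Oxct2b, Ubqlnl, Bpifa3, Fscn3 and Ttc24. Car2, a carbonic anhydrase (78.0 and 65.1 to 268 and 275 CPM, log2 1.93 ± 0.078), Oxct2b, a ketone body enzyme (1.86 ± 0.072), and Fscn3, the testis fascin (1.83 ± 0.067), were of like size to the protamines.

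The 5 largest rises were of genes that started from a low level in the KO meiotic libraries. Dcn, the matrix proteoglycan decorin, was at 2.54 and 1.72 CPM in KO meiotic and 90.4 and 59.3 CPM in KO post-meiotic libraries (log2 5.18 ± 0.32, edgeR adjusted p = 6.79e-05). Gsn, gelsolin, went from 12.9 and 10.5 to 142 and 101 CPM (log2 3.38 ± 0.22), and Lamc3, a laminin chain, from 6.08 and 4.78 to 63.7 and 50.3 CPM (log2 3.41 ± 0.21). In each of these genes the first KO post-meiotic library was above the second. The same order of libraries was seen for Fgl2 (4.25 ± 0.30) and the scaffold protein Ahnak (2.24 ± 0.14).

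Of 30 genes of peritubular cells and fibroblasts 28 rose and none fell, with a median of 1.76, and their summed level was 364 to 391 CPM in KO meiotic and 943 to 1056 CPM in KO post-meiotic libraries. Of 29 leukocyte and macrophage genes 26 rose and none fell, with a median of 2.02 and a sum of 47.1 to 57.1 against 198 to 227 CPM. All 5 tested red cell genes rose, with a sum of 2.35 to 2.90 against 30.9 to 32.8 CPM. Leydig cell genes went the other way, with 18 of 22 falling and 1, Scarb1 (0.52 ± 0.062), rising, a median of -1.58 and a sum of 424 to 575 against 224 to 229 CPM.

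Defining markers of these cells were present, most of them at a low level, while Cyp17a1 was not low in the KO meiotic libraries. The smooth muscle actin Acta2 was at 5.37 and 4.75 CPM in KO meiotic and 34.8 and 27.4 CPM in KO post-meiotic libraries, the pan-leukocyte gene Ptprc at 1.39 and 1.18 and 5.85 and 4.23 CPM, the globin Hbb-b1 at 0.507 and 0.386 and 20.4 and 18.2 CPM, and the Leydig cell enzyme Cyp17a1 at 119.8 and 73.5 and 17.8 and 17.3 CPM. Of 30 Sertoli cell genes 10 rose and 4 fell (Wt1 at 4.93 and 5.02 and 6.95 and 8.56 CPM), and their sum of 1658 to 1689 against 1087 to 1105 CPM was mostly Tuba3b, a tubulin that germ cells also make (-0.86 ± 0.049). The other falls were of Dmrt1 (-0.56 ± 0.093), Nr5a1 (-0.40 ± 0.13) and Tjp1 (-0.27 ± 0.057). Of 19 endothelial genes 8 rose and 1, Sox18 (-0.85 ± 0.19), fell, with a sum of 61.8 to 63.9 against 90.5 to 93.7 CPM. Of 29 spermatogonia genes 13 fell and 4 rose, Lhx1 (1.63 ± 0.17), Thy1 (1.18 ± 0.33), Pou5f1 (0.75 ± 0.14) and Cd9 (0.70 ± 0.089), with a sum of 670 to 671 against 587 to 627 CPM, and Zbtb16, their defining factor, was at 3.91 and 5.19 and 2.97 and 3.61 CPM. Early response and heat shock genes, which can rise while a tissue is dissociated, rose at 19 and fell at 2 of 29, Jun (-0.74 ± 0.11) and Hsph1 (-0.21 ± 0.056), with a median of 0.69. Of the members named against their lists, Nr5a1 missed the test in 4 of 10 alternatives and Thy1 in 3, both with DESeq2 and without the first library of either KO group, Nr5a1 also without the second KO post-meiotic one, and Hsph1 in 3, without either KO post-meiotic or the second KO meiotic library. Fos was at 1.89 and 1.15 CPM in KO meiotic and 3.38 and 2.60 CPM in KO post-meiotic libraries. The part of other cells in the genes called above was not tested.

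Genes of the X chromosome rose in the KO transition. Of 966 tested 163 rose (16.9%) and 5 fell (0.518%) by more than 1, against 10.3% and 11.8% of all genes, and with no fold minimum 495 rose and 18 fell. The falls on X and Y by more than 1 numbered 8 without the first KO meiotic library. Their median was 0.54, against 0.65 in the WT transition and against -0.10 to 0.24 on the autosomes. The summed level of the X was 8706 to 8820 CPM in KO meiotic and 16820 to 16833 CPM in KO post-meiotic libraries. Akap4, the most abundant of them in post-meiotic cells, accounted for 1234 and 1137 CPM of the former and 3623 and 3544 CPM of the latter.

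Both kinds of X-linked genes took part. Of 50 housekeeping genes 35 rose, with a median of 0.45, and 1, the complex I subunit Ndufa1 (-0.65 ± 0.082), fell. Usp9x, a deubiquitinase, was at 123 and 130.1 CPM in KO meiotic and 182 and 187 CPM in KO post-meiotic libraries (log2 0.54 ± 0.047), and Uba1, the ubiquitin-activating enzyme, at 127 and 123 and 197 and 203 CPM (log2 0.68 ± 0.058). Of 45 X-linked spermatid genes 29 rose, with a median of 0.51, and 1, Mageb4 (-0.67 ± 0.14), fell. Satl1 (1.39 ± 0.058), the actin-related gene Actrt1 (1.31 ± 0.068) and Cypt1, of the cysteine-rich perinuclear theca family (137 and 129.6 to 288 and 277 CPM, log2 1.08 ± 0.086), rose. The members of the Cypt, Magea, Xlr and Slx families share near-identical sequence, so unique reads can undercount them.

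By the naming rule, the 6 largest rises on X with at least 10 CPM were of Bgn (3.57 ± 0.20) and Col4a5 (1.83 ± 0.14), genes of the connective tissue matrix, Flna (1.67 ± 0.11), an actin crosslinker, Tspan6 (72.3 and 62.3 to 224 and 214 CPM, log2 1.71 ± 0.061) and the predicted genes Gm614 (1.90 ± 0.071) and Gm5382 (1.64 ± 0.10). The fall was of Gm14698 (57.1 and 63.0 to 28.4 and 26.0 CPM, log2 -1.14 ± 0.065). Of 13 tested Y-linked genes 9 rose and none fell with no fold minimum. Usp9y (24.7 and 26.6 to 43.0 and 42.5 CPM, log2 0.74 ± 0.061), Ddx3y (0.89 ± 0.071), Uty (0.86 ± 0.072) and Eif2s3y (60.4 and 60.4 to 85.5 and 84.6 CPM, log2 0.49 ± 0.053) were among them. Of 14 autosomal retrogenes that have an X-linked parent 6 fell and 4 rose, Pgk2 (1.20 ± 0.050), G6pd2 (0.81 ± 0.064), Gykl1 (0.42 ± 0.048) and Cetn1 (0.20 ± 0.044, not past the test with library totals or without the first KO post-meiotic library), with a median of -0.17.

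**Figure D3:**
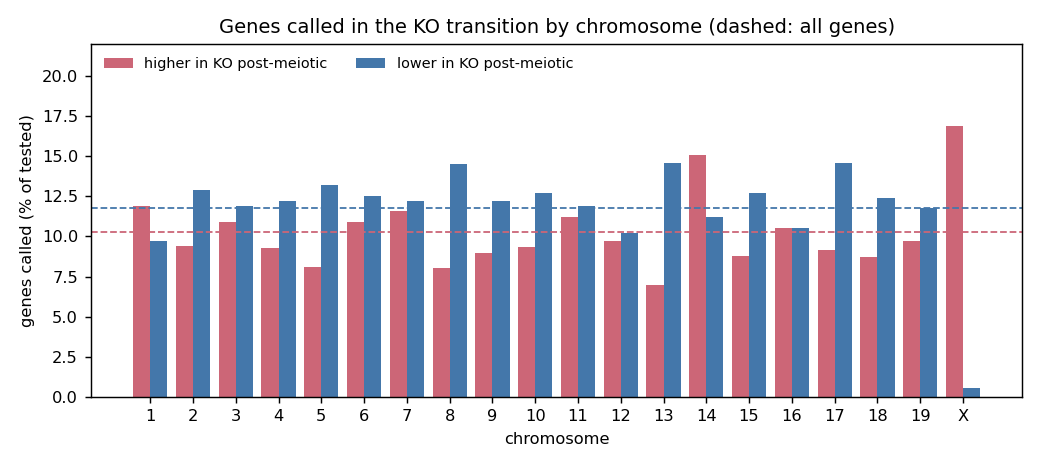
Share of tested genes called higher (red) and lower (blue) in KO post-meiotic cells on each chromosome with over 100 tested genes, in percent. Dashed lines are the shares over all genes (10.3 and 11.8), and X holds 16.9% higher and 0.518% lower.

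Genes of the PIWI pathway fell the most of the germ cell lists. Of 31 tested 23 fell and 4 rose, with a median of -1.32. Piwil1, the PIWI protein of pachytene spermatocytes, was at 471 and 531 CPM in KO meiotic and 51.9 and 50.6 CPM in KO post-meiotic libraries (chr5:129242121-129261349, log2 -3.29 ± 0.062, edgeR adjusted p = 2.89e-18). Tdrd5 (178 and 197 to 22.8 and 21.3 CPM, log2 -3.08 ± 0.061) and Tdrd1 (373 and 418 to 51.2 and 46.8 CPM, log2 -3.01 ± 0.062), Tudor proteins that bind PIWI proteins, fell by about as much, and Piwil2 fell less (-2.65 ± 0.072). Over all tested genes, the KO groups did not overlap in 84.5%, in either direction. The KO post-meiotic libraries lay below both KO meiotic ones in Piwil1, Tdrd5 and Tdrd1, as the rule naming the largest falls requires. The 4 that rose were Kif17 (1.16 ± 0.049), a kinesin, Papolb, the testis poly(A) polymerase (0.50 ± 0.045), Gtsf1l (0.48 ± 0.063) and Gtsf1 (0.28 ± 0.051). Mael (1345 and 1334 to 1343 and 1296 CPM, log2 -0.02 ± 0.045), Ddx25 (-0.08 ± 0.043) and Tdrd7 (0.06 ± 0.043) did not pass the test.

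Transcripts of the piRNA clusters fell with them. Reads on clusters per 100 reads on genes were 3.22 and 3.72 in the KO meiotic libraries and 0.540 and 0.535 in the KO post-meiotic ones, and 4.52 and 4.10 against 0.458 and 0.438 in WT. Of 402 tested clusters 140 fell (34.8%) and 33 rose (8.21%) at an adjusted p under 0.01 with a log2 change past 0.5, in an edgeR fit of genes and clusters together. The direction followed the level in KO meiotic cells, taken as RPKM, the CPM per kilobase of cluster. Of 38 clusters at 10 RPKM or more 35 fell and 1 rose, with a median of -3.16, and of 63 between 1 and 10 RPKM 48 fell and 4 rose, with a median of -1.87. Of 106 between 0.1 and 1 RPKM 44 fell and 14 rose, with a median of -0.26, and of the 195 below 0.1 RPKM 13 fell and 14 rose. The level that sorts the clusters is one side of the change, so the order of these medians is a description.

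**Figure D4:**
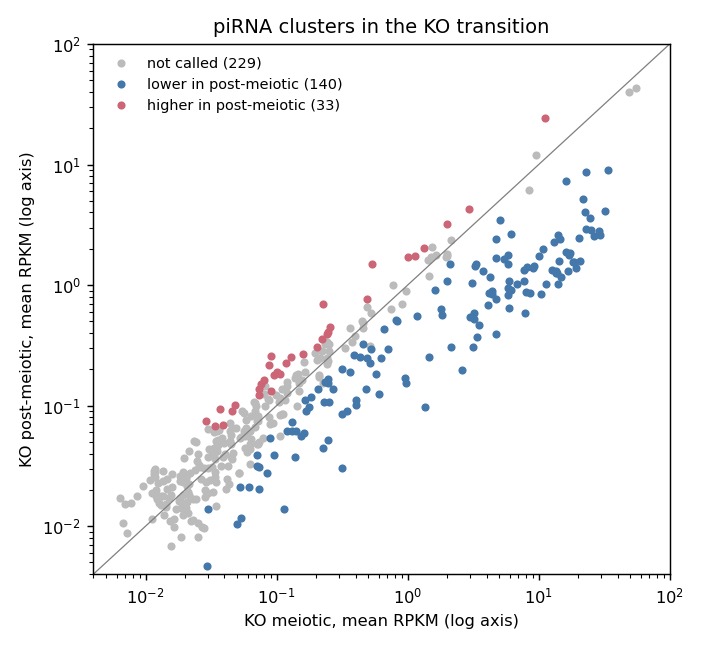
Mean level of 402 piRNA clusters in KO meiotic (horizontal) and KO post-meiotic cells (vertical), in RPKM on log axes. Each point is a cluster, the line marks equal levels, and the 140 lower clusters include 35 of the 38 at 10 RPKM or more.

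The 5 clusters with the most reads held 30.2% of all cluster reads of KO meiotic cells. The largest, at chr17:27419945-27507898 of mm9 over the non-coding gene Gm10505, was at 2209.8 and 2898 CPM in KO meiotic and 237 and 258 CPM in KO post-meiotic libraries (log2 -3.37 ± 0.17, edgeR adjusted p = 1.83e-05). The cluster at chr12:99617211-99694189, which overlaps the potassium channel gene Kcnk10, went from 1873 and 2206 to 197 and 199 CPM (log2 -3.36 ± 0.072). Another, at chr6:127728022-127792044 in the interval between the genes Prmt8 and Tspan11, went from 1730.1 and 2002 to 169 and 164 CPM (log2 -3.49 ± 0.066). All KO post-meiotic libraries were below all KO meiotic ones at each of them, as at 48.3% of the tested clusters. The other two, at chr9:67536808-67610822 and chr18:67187688-67247676, fell by 3.14 and 3.70 on the log2 scale.

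The steepest falls were at chr5:115568030-115578774 (-3.82 ± 0.11), which overlaps Acads and Unc119b, chr11:103281325-103314322 (-3.78 ± 0.079), chr5:150588623-150637186 (-3.78 ± 0.086), chr2:127512779-127532611 (-3.73 ± 0.080) and chr10:86060746-86091767 (-3.71 ± 0.092). The last has a neighbour that ends 1972 bases before it, at chr10:86022748-86058773, which fell by 3.61. Divergent transcription of neighbouring clusters is known in spermatocytes, but the counts carry no strand.

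The clusters that rose had a median of 0.119 RPKM in KO meiotic cells, against 0.109 RPKM for all tested and 3.16 RPKM for those that fell. Those with the largest rises were at chr6:54648803-54653811 (1.61 ± 0.15), chr7:28299048-28308003 over the periaxin gene Prx (1.55 ± 0.19), chr6:113576369-113584981 over Vhl (1.49 ± 0.11), chr5:89002026-89011049 over Rufy3 (1.35 ± 0.26) and chr17:33879950-33888926 over Rab11b (1.33 ± 0.21). Chosen after its values were seen, the strongest that rose, at chr2:130410808-130418751 over the ubiquitin ligase gene Ubox5, went from 93.7 and 82.4 to 194 and 196 CPM (log2 1.15 ± 0.077). A protein-coding gene overlapped 31 of the 33 clusters that rose (93.9%), 68 of the 140 that fell (48.6%), and 10 of the 35 that fell from 10 RPKM or more (28.6%), against 298 of all 402 (74.1%). Reads over protein-coding genes, pseudogenes and some other gene classes had been removed by the authors before counting. Processed transcripts, the class of Gm10505 and Malat1, are not among the classes they list. The part of leftover genic reads in the rises was not tested.

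The highest levels per kilobase belonged to clusters that barely moved, also chosen after their values were seen. At chr17:49247411-49255034, with no annotated gene, the level was 422 and 419 CPM in KO meiotic and 333 and 324 CPM in KO post-meiotic libraries, or 55.1 and 43.1 RPKM (log2 -0.36 ± 0.045). At chr19:5801022-5808025, which overlaps the nuclear non-coding RNA Malat1, it was 340.5 and 342 and 288 and 268 CPM (log2 -0.30 ± 0.049). Both passed the adjusted p and missed the fold of a call.

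The KO transition resembled that of WT cells, with named departures. Of the 4511 genes called in KO cells 4460 changed in the same direction in WT cells, and the log2 changes had a Pearson correlation of 0.880 across the 20412 genes, which share normalisation and fractionation and are not independent replicates. Tested directly, 102 genes had a more positive change in KO than in WT (0.5%) and 1 a more negative one (0.0049%), at an edgeR adjusted p under 0.01 and a difference beyond 1. Of the 102, 39 reached 5 CPM in a KO group, and 60 rose, 20 fell and 22 did not pass the test in the KO transition. Without the first KO post-meiotic library 14 genes passed in the positive direction, 54 without the second KO meiotic, 34 without the first WT meiotic and 30 without the second WT post-meiotic one, while leaving out others gave up to 143. In the negative direction the count was 0 to 4 when libraries were left out in turn, 4 of them without the first WT post-meiotic one.

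Among the 10 with the smallest p, some fell less in KO cells. Susd5 was at 25.6 and 26.2 CPM in KO meiotic and 9.16 and 9.50 CPM in KO post-meiotic libraries (log2 -1.47 ± 0.074, -2.84 in WT, difference 1.36 ± 0.11, edgeR adjusted p = 4.27e-06). Pou5f2, a POU domain factor of the germ line, fell by 2.74 against 3.95 in WT (difference 1.21 ± 0.14), and Ccdc142 by 2.20 against 3.42 (difference 1.22 ± 0.14). Mean levels of Pou5f2 were 33.5 CPM in KO against 72.2 CPM in WT meiotic libraries, but 4.99 against 4.65 CPM in post-meiotic ones. For Ccdc142 they were 13.4 against 26.6 CPM, then 2.92 against 2.49 CPM. Fmnl2, a formin, fell in WT only by the test of each genotype (0.17 ± 0.11 in KO, -1.29 in WT, difference 1.45 ± 0.15), and the adenylate kinase Ak5 was at 0.67 ± 0.13 against -0.82 (difference 1.49 ± 0.19). Fmnl2 was at a mean of 5.28 CPM in KO against 11.8 CPM in WT meiotic libraries, and 5.94 against 4.83 CPM in post-meiotic ones.

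The others rose more in KO cells and are genes of matrix or cell surface. Lama2, a laminin chain, was at 24.0 and 25.1 CPM in KO meiotic and 69.2 and 60.9 CPM in KO post-meiotic libraries (log2 1.40 ± 0.073, 0.23 in WT, difference 1.18 ± 0.10, edgeR adjusted p = 8.93e-06). Mgp, the matrix Gla protein, was at 0.285 and 0.193 and 7.14 and 5.58 CPM (difference 2.96 ± 0.35), and the peptidase Mme (1.61 ± 0.20), the hyaluronan-binding Itih5 (1.86 ± 0.22) and the protease Htra3 (1.81 ± 0.23) differed too. Of the 102, 10 belong to the lists of other testis and blood cells, 6 to peritubular cells and fibroblasts, 3 to Leydig cells, 1 to red cells and none to leukocytes. The summed KO levels of these lists are given above. Those sums were also uneven between genotypes, with red cell genes at 11.3 to 11.9 CPM in WT post-meiotic and 30.9 to 32.8 CPM in KO post-meiotic libraries, leukocyte and macrophage genes at 116 to 117 against 198 to 227 CPM, and peritubular and fibroblast genes at 741 to 801 against 943 to 1056 CPM. Leydig cell genes were at 616 to 658 CPM in WT meiotic against 424 to 575 CPM in KO meiotic libraries, and 187 to 197 against 224 to 229 CPM in post-meiotic ones. The part of these cells in the differences was not tested. The gene with a more negative change, the predicted gene Gm4204, was at 0.285 and 0.315 CPM in KO meiotic and 0.411 and 0.575 CPM in KO post-meiotic libraries, and below 1 CPM in every library of the series.

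Hist1h1t also fell less in KO cells, by 4.13 against 4.74 in WT (difference 0.61 ± 0.081, edgeR adjusted p = 0.000351). In KO post-meiotic libraries it was at 58.7 and 53.5 CPM, and no WT post-meiotic library was above 31.4 CPM. Residual reads of H3f3b fell by 0.59 in KO against 1.30 in WT (difference 0.72 ± 0.11).

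The piRNA clusters departed from WT in 1 direction. The change was more positive in KO at 60 of 402 clusters (14.9%) and more negative at 0 (0%), at an edgeR adjusted p under 0.01 and a difference beyond 0.5. At an unadjusted p under 0.05, 5 clusters had a more negative change of that size, and DESeq2 called 0. With no fold minimum 65 passed, all of them more positive, and 60 of these were called lower in the KO transition. The median change of the 38 clusters at 10 RPKM or more was -3.16 in KO and -3.94 in WT, and 24 of them differed. At the Kcnk10 cluster the log2 change was -3.36 in KO and -4.27 in WT (difference 0.90 ± 0.093, edgeR adjusted p = 0.00011), where levels were 1873 and 2206 CPM in KO meiotic against 3037 and 2796 CPM in WT meiotic libraries, and 197 and 199 CPM in KO post-meiotic against 155 and 148 CPM in WT post-meiotic ones. KO libraries were thus below WT before the transition and above WT after it. At the largest cluster, on chr17, the difference was 0.27 ± 0.22 and did not pass the test. Without the first KO post-meiotic library 25 clusters were more positive, and 38 without the second WT post-meiotic one. In the negative direction 1 passed without the first WT post-meiotic library.

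**Figure D5:**
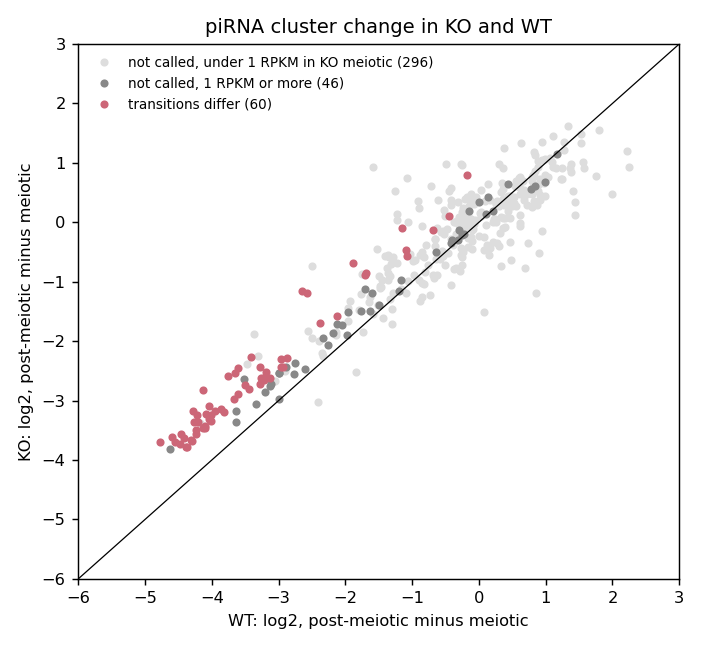
Log2 change across the transition of 402 piRNA clusters in WT (horizontal) and KO cells (vertical). Each point is a cluster, the line marks equal change, and the 60 clusters in red, where the transitions differ, lie above it.

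Repeat families moved less than clusters. They are given as RPM, the CPM of a family among all reads on repeats. Of 965 tested families 109 rose (11.3%) and 77 fell (7.98%) at an edgeR adjusted p under 0.01 with a log2 change past 0.5, and the median of all was 0.16. The split depends on the scaling: TMM over families gave 43 rises and 109 falls, gene library sizes 73 and 92, and DESeq2 33 and 109. The fit estimated 1 spread for nearly all families, so p-values of single families are not given. The standard errors and the counts of calls come from the same fit and share this limit.

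Of 101 tested RLTR families 12 fell and 4 rose, and of 193 simple repeats 11 fell and 17 rose. Of 108 MER families 9 fell and 22 rose, and of 58 MLT families 6 fell and 13 rose. Over all 965 families 77 fell (7.98%) and 109 rose (11.3%). Among the 6 largest falls, MLT1I-int was at 206 and 246 RPM in KO meiotic and 20.5 and 15.8 RPM in KO post-meiotic libraries (log2 -3.64 ± 0.087), and LTR68 at 152 and 169.8 and 21.1 and 16.9 RPM (log2 -3.08 ± 0.089). IAPLTR3-int, the internal part of an intracisternal A particle element, went from 3508 and 3703 to 949.9 and 879 RPM (log2 -1.98 ± 0.053), and its long terminal repeat IAPLTR3 fell by 2.33. MER68-int (-2.38 ± 0.086) and MER110 (-2.05 ± 0.11) complete the 6 largest falls. In all 6 both KO post-meiotic libraries were below both KO meiotic ones, which held for 24.4% of all families. The other IAP families changed little, with 1 of 16 called higher, IAPLTR4 (0.61 ± 0.10), and no further one called lower. A family count can be set by 1 transcribed copy inside a gene or cluster, which counts by family do not show.

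Of the 6 largest rises 4 were of simple repeats, a kind with 17 of 193 called higher, (CCCTAG)n (275 and 229 to 745 and 716 RPM, log2 1.54 ± 0.061), (GTGTG)n (1.49 ± 0.064), (GCCTAA)n (1.46 ± 0.089) and (CTGTG)n (1.44 ± 0.060), followed by LTR86A1 (1.35 ± 0.13) and MLT1F1-int (1.13 ± 0.11). Of the 6 families of young LINE elements, L1Md, 2 were called higher. L1Md_T was at 10702 and 11164 RPM in KO meiotic and 15784 and 15436 RPM in KO post-meiotic libraries (log2 0.51 ± 0.050), L1Md_Gf was at 0.50 ± 0.056 and the other 4 lay between 0.45 and 0.47, under the fold of a call. With TMM over families the 6 lay between 0.30 and 0.36, with DESeq2 between 0.30 and 0.36 and with gene library sizes between 0.38 and 0.44, none of them called, while the median of all families moved from 0.16 to 0.01, 0.00 and 0.08. B1, B2 and ID families, 24 in all, had no call in either direction. RLTR10B fell by 0.36 (193 and 193 to 156 and 146 RPM), under the fold of a call, while it was at 0.00 in WT. RPM is a share of repeat reads, so this comparison with WT depends on the scaling. Repeat reads per 100 gene reads went from 19.8 and 20.3 to 17.3 and 18.4 in KO. In WT they went from 19.5 and 18.8 to 15.7 and 14.9. The level of RLTR10B was above WT at both stages, where WT meiotic libraries held 109 and 104 RPM and WT post-meiotic ones 105 and 108 RPM. RLTR10B2 was at 0.13 ± 0.066 and did not pass the test. It was also above WT, with means of 161 against 107 RPM in meiotic and 177 against 118 RPM in post-meiotic libraries.

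Repeat families differed from the WT transition at 11 with a more positive (1.14%) and 1 with a more negative change (0.104%). Without the first KO post-meiotic library 5 were more positive, without the first KO meiotic or the first WT meiotic one 6, and the count in the other direction ran from 0 to 2. MuRRS-int, of a murine retrovirus-related element, was at 139 and 143 RPM in KO meiotic and 85.2 and 81.7 RPM in KO post-meiotic libraries, with a log2 change of -0.76 in KO and -1.60 in WT (difference 0.84 ± 0.10). MER68-int (0.84 ± 0.13), MLT1I-int (0.64 ± 0.14), RLTR9A2 (0.63 ± 0.10) and IAPLTR3-int (0.54 ± 0.072) likewise fell less in KO. Mean levels of RLTR9A2 were 176 RPM in KO against 279 RPM in WT meiotic libraries, and 63.0 against 64.3 RPM in post-meiotic ones. In the same order, MuRRS-int was at 141 against 222 and 83.4 against 73.6 RPM, and MER68-int at 131 against 192 and 25.3 against 20.6 RPM. MLT1I-int was at 226 against 280 and 18.2 against 14.4 RPM, and IAPLTR3-int at 3606 against 3882 and 915 against 676 RPM. IAPEY3-int fell by 0.20 in KO against 0.83 in WT. The 1 in the other direction was MER67A (-0.56 ± 0.15), which did not pass the test in the KO transition itself. Its difference from WT was not called with DESeq2, gene library sizes or the replicate block.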

How the data were processed

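RNA of sedimented testis fractions was sequenced by the authors from stranded total RNA libraries as single-end 50 base reads. Per the labels and methods, reads were demultiplexed with bcl2fastq 2.17.1.14, placed on the mm9 genome by TopHat2 2.0.14 (Bowtie2 2.1.0) keeping unique alignments, and counted over Ensembl genes with HTSeq 0.6.1, with no strand setting stated. Counts of overlapping and antisense genes are therefore uncertain. The deposited values used here are raw counts. For piRNA clusters the authors counted reads with bedtools after removing those over protein-coding genes, pseudogenes and some other listed gene classes, with their flanks. For repeats they summed reads by RepeatMasker family, with aligner settings not given in the sources used here. Cluster positions are as deposited. The tables also hold log2 and adjusted p columns of the authors' own comparisons (DESeq2 1.14.1), which were not used.

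Counts were tested in R 4.3.3 with edgeR 4.0.16 (robust quasi-likelihood fit over all 8 libraries in 4 groups, expression filter, TMM factors from 0.922 to 1.07, common biological coefficient of variation 0.0500). Benjamini-Hochberg adjustment ran over all tested features. Genes were called at an adjusted p under 0.01 with a log2 change past 1, clusters and repeats beyond 0.5. Genes and clusters were fitted together for the cluster test. Families were scaled by total repeat counts, from 8995050 to 18865521 per library, and kept at a mean of 5 RPM in a KO group. List members were counted at the adjusted p alone. The difference of the KO and WT transitions was tested as a contrast of the same fit. A standard error is the size of a change over the square root of its F. The scripts were tested on simulated data.

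The 27 lists hold 862 distinct tested genes, and 17 more had too few reads. Genes were named by rule: the stage markers, the 12 largest changes each way with at least 50 CPM and no overlap, list members with those against their list always named (lists with about as many rises as falls have none), the 6 largest changes each way on X and Y with at least 10 CPM, the 10 smallest p of the difference with at least 5 CPM, the 5 clusters with most reads and the 5 largest cluster changes each way, and the 6 largest repeat changes each way with RLTR10B, RLTR10B2 and the L1Md and IAP families. Numbered predicted genes and clones were passed over among the 12. Members and lists were chosen with earlier results of these data known. Gene and cluster annotation came from GENCODE M1 on mm9, and promoters from RefSeq on GRCm38.p6. Alternatives were other scalings, DESeq2 1.42.0, no filter, other fold limits, the 4 KO libraries alone, the replicate number as a block, and each library left out.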

Additional observations from a re-analysis of the deposited data

Results flagged for a closer look

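Every result here is one where the change across the transition differed between KO and WT cells by a test of the difference itself (edgeR, adjusted p under 0.01), given as the log2 change in KO minus that in WT. In all, 102 genes had a more positive and 1 a more negative change beyond 1, 60 clusters a more positive and 0 a more negative change beyond 0.5, and 11 repeat families a more positive and 1 a more negative one.

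Of the genes named above, the differences were 0.61 for Hist1h1t, -0.66 for Hist1h2aa, 0.72 for H3f3b, 0.65 for Cdk2, 0.67 for Atp2b4, 1.05 for Jun, 0.45 for Mllt10, 0.36 for Slc2a3, 0.49 for Mgll, 1.21 for Pou5f2 and 1.22 for Ccdc142. A smaller rise in KO was seen for the calcium channel genes Catsper1 (-0.48) and Catsper3 (-0.48), for Ccnb1 (-0.44), Cdc25a (-0.42), Plk1 (-0.42), Kif23 (-0.34) and Cenpe (-0.33) of the divisions, and for the cohesin genes Rec8 (-0.37) and Smc3 (-0.40). The X-linked ribosomal protein gene Rps4x differed by 1.19, Susd5 by 1.36, Fmnl2 by 1.45 and Ak5 by 1.49. Genes of matrix, surface or blood were Lama2 (1.18), Mme (1.61), Htra3 (1.81), Itih5 (1.86), Hbb-b1 (1.98) and Mgp (2.96). The predicted gene Gm4204, at -5.03, was near 0 in WT meiotic libraries.

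Named clusters differed by 0.90 at the Kcnk10 cluster on chr12, 0.75 at chr6:127728022-127792044, 0.73 at chr9:67536808-67610822, 0.85 at chr18:67187688-67247676, 0.60 at chr11:103281325-103314322, 0.60 at chr5:150588623-150637186, 0.74 at chr2:127512779-127532611 and 1.07 at chr10:86060746-86091767. Repeat families differed by 0.84 for MER68-int, 0.84 for MuRRS-int, 0.71 for LTR86A1, 0.64 for MLT1I-int, 0.63 for RLTR9A2, 0.54 for IAPLTR3-int, -0.35 for RLTR10B and -0.56 for MER67A. The tests of families rest on 1 spread for nearly all of them and on scaling by repeat reads. RLTR10B lay under the fold of a call, 0.5. MER67A was not called with DESeq2, gene library sizes or the replicate block.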

How the results depend on the processing

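Counts of genes, clusters and families kept their order of rises and falls except for repeats, which had more falls than rises at a log2 change beyond 1 and under TMM over families (43 rises and 109 falls), DESeq2 (33 and 109) and gene library sizes (73 and 92). Dropping the fold minimum gave 6028 rises and 6431 falls of genes, 504 and 18 on X and Y, and 343 and 188 differed from WT. With no filter on low counts 218 and 9 genes differed from WT, and 1 cluster had a more negative change. RLE factors gave 2 genes with a more negative difference. At a log2 change beyond 1, 9 clusters rose, and families turned to 8 rises and 27 falls. Clusters with at least 1 RPKM in KO meiotic cells gave 5 rises and 83 falls. Differences of families numbered 5 and 0 with DESeq2, 4 in the positive direction with TMM, and 35 and 0 with gene library sizes. Other tools and scalings left all remaining counts within 1.5 times.

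The labels do not say whether replicate numbers pair fractions of 1 mouse, and with 2 pairs a genotype the deviations of same-numbered libraries correlated at 0.174 in KO and 0.259 in WT. With the replicate block 175 genes had a more positive and 5 a more negative difference from WT, and 0 families a more negative one.

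Leaving out 1 library at a time gave 1756 to 2088 rises and 2182 to 2528 falls of genes, 139 to 165 and 6 to 8 on X and Y, 23 to 26 and 123 to 137 of clusters, and 100 to 122 and 73 to 78 of families. Differences from WT ran from 14 to 143 and 0 to 4 for genes, 25 to 65 and 0 to 1 for clusters, and 5 to 14 and 0 to 2 for families. A left-out library leaves 1 sample in its group, which is assumed to vary like the others. For the single genes named above the side of the test changed in 116 results to not passing and in 4 to passing, against 2100 that did not change, and no called direction turned.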
